A study of Mus musculus with 8 samples.

Results

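Oxidative phosphorylation genes were selected by name among the 19065 genes measured in mouse colon. A gene was taken when its symbol began with mt-, Ndufa, Ndufb, Ndufc, Ndufs, Ndufv, Uqcr, Cox4, Cox5, Cox6, Cox7, Cox8 or Atp5, or was Sdha, Sdhb, Sdhc or Sdhd. This gave 104 genes. Of these, 13 are encoded by mitochondrial DNA and 91 by nuclear chromosomes, and the nuclear genes comprise 82 subunits and 9 assembly factors whose symbols share a prefix, 8 of complex I (Ndufaf1 to Ndufaf8) and Cox7a2l, of supercomplexes. Complex I (NADH dehydrogenase) had 7 mitochondrial and 37 nuclear genes, complex II (succinate dehydrogenase) 0 and 4, complex III (cytochrome bc1) 1 and 8, complex IV (cytochrome c oxidase) 3 and 19, and complex V (ATP synthase) 2 and 14.

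The respiratory chain passes electrons from NADH and succinate to oxygen while pumping protons out of the mitochondrial matrix, and ATP synthase uses the returning protons to make ATP. Its subunits come from a pair of genomes: mitochondrial DNA is transcribed inside the organelle as long precursors from both strands, whereas nuclear subunits are transcribed gene by gene and imported after translation. Complex II is the complex made of nuclear subunits alone. In the colon, absorptive epithelial cells are known to oxidise short-chain fatty acids such as butyrate, a product of fibre fermentation, in their mitochondria.

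Colon tissue came from 4 C57BL/6 mice fed fish oil and pectin and 4 C57BL/6 mice fed corn oil and cellulose, each for 3 weeks. From each mouse, 2 sections of 50 µm were cut from a formalin-fixed, paraffin-embedded colon roll and profiled with the 10x Genomics Flex assay, which counts pairs of probes ligated on fixed RNA and gives a unique molecular identifier (UMI) count per gene and barcode. Age and sex were not given in the sources used here. The titles name colonocytes, but the protocol gives whole colon sections and haemoglobin or fibroblast transcripts led many barcodes.

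The 8 libraries held 8588 barcodes and 1160832 UMIs, with 106 to 5180 barcodes and 34758 to 245476 UMIs per mouse. Only 2249 barcodes held at least 100 UMIs from genes other than the 104; 2307 held 20 to 99 and 4032 held fewer than 20. The 2249 deeper barcodes were clustered without the 104 genes. An epithelial-like class of 699 barcodes, a fibroblast-like class of 194 and a haemoglobin-led class of 980, in which over 50% of UMIs were typically globin, were used for comparisons. In the epithelial-like class the 22 absorptive colonocyte markers, none at 0, made up 2.35 to 3.42% of UMIs in fish oil/pectin mice. In corn oil/cellulose mice they made up 1.22 to 2.50%. The 19 goblet markers, none at 0, made up 1.73 to 2.92% and 0.990 to 3.38% of the same class. The class thus held transcripts of both cell types, and the part of their mixture in the diet comparison was not tested. The 15 fibroblast markers made up 1.17 to 3.04% and 1.71 to 2.79% of the fibroblast-like class, against 0.0590 to 0.143% and 0.0422 to 0.134% of the epithelial-like class. Barcode sequences shared between libraries placed the mice in 2 pools. One held fish oil/pectin mouse 1 and corn oil/cellulose mice 1 to 3, the other fish oil/pectin mice 2 to 4 and corn oil/cellulose mouse 4. Within them 189 droplet barcodes were shared over 12 pairs of libraries and 24 over 16 pairs between them, and 6 full barcodes occurred in a pair of libraries. Of all divisions of the mice into 2 groups, this one had the most sharing within groups above expectation, so these counts are not a test of it. The pools are inferred and are not named in the sample titles. Pool and diet therefore cannot be fully told apart. In UMIs summed over barcodes, fewer cells of a type and less RNA per cell cannot be told apart either.

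The mitochondrial genes lie close together on chrM. mt-Atp6 and mt-Co3 share 1 base, and 3 other neighbouring pairs overlap further, so a transcript or probe from bases shared on the same strand belongs to both names. These 3 overlaps are shown because the counts of these 6 genes depend on where the probes lie, which is not given in the sources used here. Each line gives the last bases of a coding region in GRCm38 (GENCODE M21), 5′ to 3′ on the strand of the named gene, with the overlapping bases in capitals. The mt-Atp8 line covers chrM:7907-7969 and shares 43 bases with mt-Atp6; the mt-Nd4l line covers chrM:10147-10173 and shares 7 bases with mt-Nd4. The mt-Nd5 line covers chrM:13532-13565 on the plus strand and the mt-Nd6 line chrM:13552-13585 on the minus strand. These genes share 14 bases on opposite strands.
mt-Atp8: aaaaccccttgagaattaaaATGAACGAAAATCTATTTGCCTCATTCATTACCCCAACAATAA
mt-Nd4l: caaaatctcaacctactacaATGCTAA
mt-Nd5: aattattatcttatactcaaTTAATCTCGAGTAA
mt-Nd6: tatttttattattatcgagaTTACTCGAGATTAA

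Among the 13 genes, mt-Nd6, a membrane subunit of complex I, is the one coded on the minus strand. Its transcript holds 28.1% G and 5.97% C, against 5.88 to 16.1% G and 22.1 to 29.97% C in the other 12. It spans chrM:13552-14070.

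Nuclear subunit promoters are known for binding sites of NRF1, a factor that coordinates respiratory genes. The RefSeq table (GRCm38.p6, 250 bases before to 50 after the start) matched 74 of the 91 nuclear genes. The NRF1 letters GCGCATGCG, searched on both strands, occurred in 9 of them (12.2%), against 1.95% of all 27025 promoters in the table; they read almost the same on both strands, so matches on opposite strands overlap. The YY1 letters AAGATGGCG occurred in 8 (10.8%) against 1.64%, and the ETS letters CCGGAAGT in 4 (5.41%) against 4.31%, both searched on both strands. The 6 genes with all NRF1 letters before the start are shown, with the matched letters in capitals, since they include subunits of complexes I, IV and V and an assembly factor; a match describes these letters and is not a measured binding site.

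Atp5k and Atp5l encode small membrane subunits of complex V; their windows are chr5:108434425-108434464 (minus strand, match 50 bases before the start) and chr9:44920960-44920992 (minus strand, 241 before). Cox6a1, a regulatory subunit of complex IV, has chr5:115349096-115349135 (minus strand, 162 before). Ndufa11 and Ndufa8, accessory subunits of the complex I membrane arm, have chr17:56717687-56717726 (plus strand, 60 before) and chr2:36049339-36049362 (minus strand, 9 before). Ndufaf4, a complex I assembly factor, has chr4:24897955-24897994 (plus strand, 113 before).
Atp5k: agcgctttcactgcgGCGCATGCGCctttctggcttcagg
Atp5l: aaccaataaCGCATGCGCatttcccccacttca
Cox6a1: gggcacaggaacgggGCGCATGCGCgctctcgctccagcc
Ndufa11: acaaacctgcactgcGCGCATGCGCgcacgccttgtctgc
Ndufa8: gcgcgtcgctggagaCGCATGCGC
Ndufaf4: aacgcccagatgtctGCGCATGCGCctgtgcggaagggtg

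Mitochondrial transcripts dominated the module. The 13 mitochondrial genes gave 186201 UMIs and the 91 nuclear genes 6799, although the number of probes per gene is not known and UMIs of different genes are therefore not levels that can be compared. In fish oil/pectin mice 1 to 4, mitochondrial genes took 5.04%, 18.5%, 22.2% and 4.59% of all UMIs. In corn oil/cellulose mice 1 to 4 they took 36.7%, 2.90%, 24.7% and 7.79%. Both the highest and the lowest share were in corn oil/cellulose mice, and the diets overlapped, with means of 12.6% ± 9.11 and 18.0% ± 15.6 (SD, n = 4 each). The Wilson 95% interval of fish oil/pectin mouse 1, which covers counting error only, ran from 4.82 to 5.28%.

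**Figure D1:**
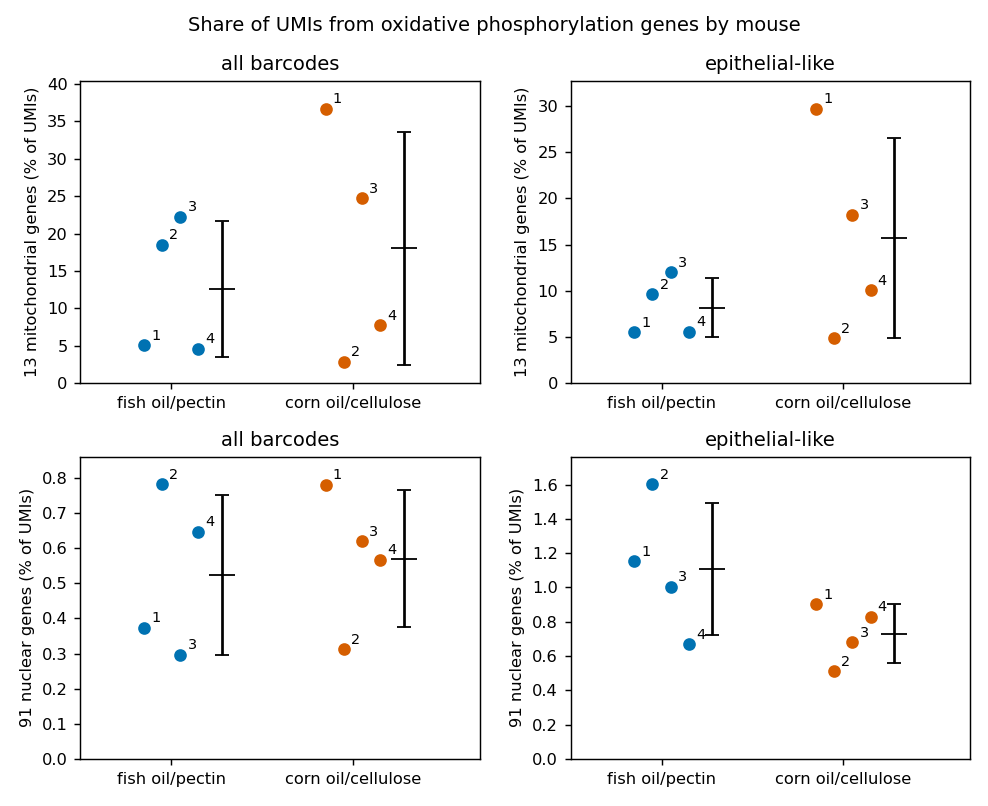
Share of UMIs from the 13 mitochondrial genes (top, %) and the 91 nuclear genes (bottom, %) in all barcodes and in epithelial-like barcodes; numbered points are mice, and bars are the mean ± SD of 4 mice per diet. The diets overlap in every panel, and the mitochondrial share over all barcodes spans 2.90 to 36.7%.

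The nuclear genes varied much less. They took 0.374%, 0.782%, 0.297% and 0.646% of UMIs in fish oil/pectin mice 1 to 4, and 0.781%, 0.312%, 0.619% and 0.567% in corn oil/cellulose mice 1 to 4. The means were 0.525% ± 0.228 and 0.570% ± 0.194 (SD, n = 4 each), and the diets overlapped. The ratio of mitochondrial to nuclear UMIs was 13.5, 23.7, 74.9 and 7.10 in fish oil/pectin mice, against 47.0, 9.29, 39.96 and 13.7 in corn oil/cellulose mice. Fish oil/pectin mice held both the highest and the lowest ratio. Haemoglobin transcripts, which fill the same libraries, took 36.3%, 34.4%, 54.3% and 6.37% of UMIs in fish oil/pectin mice and 5.08%, 40.6%, 0.0135% and 27.7% in corn oil/cellulose mice. Their part in the mitochondrial share was not tested; of the UMIs other than haemoglobin, mitochondrial genes took 22.4% on average in fish oil/pectin mice and 19.8% in corn oil/cellulose mice.

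Mice also differed in how many barcodes were made up mostly of mitochondrial UMIs. Barcodes with at least 50% mitochondrial UMIs numbered 17, 194, 304 and 2 in fish oil/pectin mice 1 to 4, against 2258, 1, 25 and 22 in corn oil/cellulose mice 1 to 4. That was 5.86%, 20.02%, 39.2% and 0.685% of barcodes in fish oil/pectin mice and 43.6%, 0.223%, 23.6% and 4.17% in corn oil/cellulose mice. Corn oil/cellulose mouse 1 alone held 3787 barcodes with fewer than 20 other UMIs, which carried 50483 mitochondrial UMIs. The median barcode held 2.39%, 26.9%, 13.7% and 1.82% mitochondrial UMIs in fish oil/pectin mice, against 45.5%, 1.51%, 19.1% and 2.77% in corn oil/cellulose mice, so the diets overlapped by barcode as well.

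By complex, the mitochondrial genes did not keep a fixed proportion to one another. Complex I genes took 58.2%, 53.6%, 28.2% and 29.4% of mitochondrial UMIs in fish oil/pectin mice 1 to 4, and 56.6%, 48.3%, 33.2% and 31.2% in corn oil/cellulose mice 1 to 4. In each diet, mice 1 and 2 were high and mice 3 and 4 low. Of the high mice, all but fish oil/pectin mouse 2 were in the first pool. All of the low mice but corn oil/cellulose mouse 3 were in the other. The ordering thus overlaps with the pools in part, and the part of the pool in it was not tested. Complex IV genes took 27.5%, 33.6%, 42.5% and 46.8% in fish oil/pectin mice and 27.7%, 32.7%, 38.7% and 42.7% in corn oil/cellulose mice, the opposite ordering. Complex V genes took 11.1%, 9.64%, 24.8% and 20.3% in fish oil/pectin mice and 11.8%, 14.9%, 23.2% and 22.0% in corn oil/cellulose mice. Complex III, represented by mt-Cytb, stayed between 3.11 and 4.80%.

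The same ordering appeared in mt-Nd6 alone. It made up 38.4%, 36.1%, 15.1% and 17.9% of mitochondrial UMIs in fish oil/pectin mice 1 to 4, and 35.0%, 30.9%, 17.9% and 18.5% in corn oil/cellulose mice 1 to 4. The 4 mice numbered 1 and 2 lay between 30.9 and 38.4% and the 4 numbered 3 and 4 between 15.1 and 18.5%, with no overlap; these numbers come from the sample titles, and this division was noticed in the values and not tested. It held over all barcodes but not in epithelial-like, haemoglobin-led or mixed barcodes, the last a cluster without a name from the markers. Corn oil/cellulose mouse 1 had 22.0% in epithelial-like barcodes, below the 24.1% of fish oil/pectin mouse 3. Corn oil/cellulose mouse 2 had 30.03% in haemoglobin-led barcodes, below the 33.9% of fish oil/pectin mouse 4. In fibroblast-like barcodes the division held, at 35.5 to 43.75% in mice 1 and 2 and 16.2 to 34.1% in mice 3 and 4. Corn oil/cellulose mouse 3 was left out there. With 20 to 99 other UMIs, mice 1 and 2 had 26.0 to 41.6%, against 20.2% and 13.2% in fish oil/pectin and corn oil/cellulose mouse 3. Below 20, fish oil/pectin and corn oil/cellulose mouse 1 had 31.0% and 35.6%, against 10.4% in fish oil/pectin mouse 3. mt-Atp6, a proton channel subunit of complex V, ran the other way, at 5.31%, 5.15%, 16.04% and 13.8% in fish oil/pectin mice and 6.31%, 8.83%, 15.2% and 14.5% in corn oil/cellulose mice. Its highest share was 3.12 times its lowest, the widest span of the 13. mt-Nd3, mt-Nd2 and mt-Nd6, all complex I subunits, spanned 3.05, 2.69 and 2.55 times. mt-Nd4 and mt-Nd1, also of complex I, varied least, by 1.40 and 1.42 times. Complex I was therefore not uniform: its transcripts included both some of the most and the least variable shares.

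**Figure D2:**
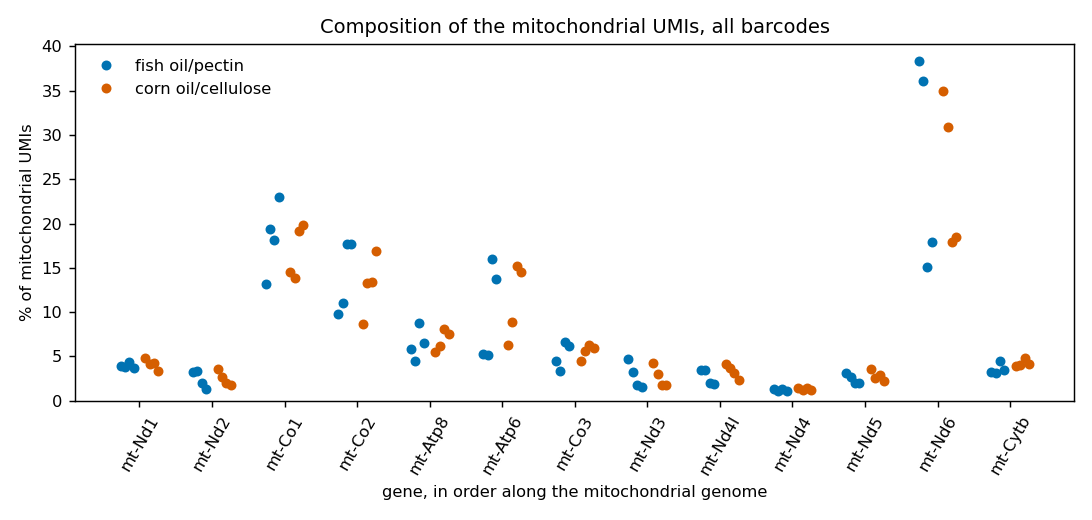
Share of mitochondrial UMIs taken by each of the 13 mitochondrial genes in all barcodes, a point per mouse, in the order of mice 1 to 4 within each diet. mt-Nd6 takes 30.9 to 38.4% in mice 1 and 2 of both diets and 15.1 to 18.5% in mice 3 and 4.

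Split by complex, the nuclear genes varied over narrower ranges than the mitochondrial ones for complexes I and V, but not for complex III. Complex I took 40.7 to 43.8% of nuclear UMIs in fish oil/pectin mice and 38.5 to 46.5% in corn oil/cellulose mice. Complex II took 5.97 to 10.4% and 5.77 to 8.73%, and complex III 7.87 to 13.8% and 9.29 to 9.91%. Complex IV took 16.7 to 26.8% in fish oil/pectin mice and 16.03 to 21.2% in corn oil/cellulose mice, and complex V 9.23 to 17.4% and 15.6 to 18.7%. All of these ranges overlapped between the diets.

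Set against its nuclear partners, each complex varied widely between mice of the same diet. For complex I, mitochondrial UMIs per nuclear UMI were 17.9, 30.2, 48.7 and 5.14 in fish oil/pectin mice 1 to 4 and 61.4, 9.66, 34.5 and 9.66 in corn oil/cellulose mice 1 to 4. For complex III they were 3.17, 9.35, 38.5 and 2.02 against 18.4, 4.03, 20.6 and 5.64. For complex IV they were 20.04, 29.7, 146 and 19.96 in fish oil/pectin mice and 61.4, 19.0, 72.9 and 34.6 in corn oil/cellulose mice. For complex V they were 16.2, 16.1, 107 and 9.35 in fish oil/pectin mice and 35.7, 8.02, 49.8 and 18.2 in corn oil/cellulose mice. Fish oil/pectin mouse 3 was highest for complexes III, IV and V, corn oil/cellulose mouse 1 was highest for complex I, and the diets overlapped for each complex.

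The nuclear subunits with the most UMIs were detected in most mice. Of complex I, Ndufb8, an accessory membrane subunit, had 173, 453, 72.8 and 105 UMIs per 1000000 UMIs (CPM) in fish oil/pectin mice 1 to 4, against 300, 140, 172 and 236 in corn oil/cellulose mice 1 to 4. Its highest and lowest values were both in fish oil/pectin mice. Sdha, the flavoprotein subunit of complex II, which oxidises succinate, had 115, 175, 52.9 and 189 CPM in fish oil/pectin mice and 145, 80.1, 197 and 139 in corn oil/cellulose mice, and the diets overlapped. Uqcrc1, a core subunit of complex III, had 230, 181, 86.0 and 409 in fish oil/pectin mice and 259, 140, 246 and 187 in corn oil/cellulose mice; its extremes were both in fish oil/pectin mice. Cox8a, the ubiquitous form of a small complex IV subunit, had 57.5, 635, 225 and 144 in fish oil/pectin mice and 544, 130, 319 and 212 in corn oil/cellulose mice. The fish oil/pectin values enclosed the corn oil/cellulose ones. Atp5o, a stalk subunit of complex V, had 115, 304, 132 and 159 CPM in fish oil/pectin mice and 357, 100, 209 and 151 in corn oil/cellulose mice, again overlapping.

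Several nuclear members were barely seen: 16 of the 91 had fewer than 20 UMIs over all libraries. Among them were the muscle or restricted isoforms Cox4i2 with 2 UMIs, Cox6a2 with 1, Cox8b with 1 and Ndufa4l2 with 3, and the testis form Cox8c with 1. Their ubiquitous counterparts had 79 UMIs for Cox4i1, 145 for Cox6a1, 359 for Cox8a and 20 for Ndufa4. Cox6b1 had 100 UMIs beside 20 for Cox6b2. Cox7a1, known as the heart and muscle form, had 29 UMIs beside 17 for the liver form Cox7a2. With probe numbers per gene unknown, these counts say how well each gene was measured, not which isoform was more abundant.

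Barcode types differed in both genomes. In the epithelial-like class, mitochondrial genes took 5.50%, 9.66%, 12.0% and 5.57% of UMIs in fish oil/pectin mice 1 to 4 and 29.7%, 4.86%, 18.2% and 10.1% in corn oil/cellulose mice 1 to 4. In the fibroblast-like class they took 1.87%, 8.74%, 3.07% and 3.33% in fish oil/pectin mice, and 3.24%, 1.35% and 2.46% in corn oil/cellulose mice 1, 2 and 4; mouse 3 had 1 such barcode and was left out. The fibroblast-like share was lower than the epithelial-like share of the same mouse in 7 of 7 mice, at 0.109 to 0.904 times. The nuclear share was also lower in 7 of 7, at 0.279 to 0.995 times with a median of 0.493. Mitochondrial UMIs per nuclear UMI were lower in fibroblast-like barcodes in 5 mice and higher in 2, with a median ratio of 0.761. The 12 smooth muscle markers, none at 0, made up 0.117 to 4.44% of the fibroblast-like class in fish oil/pectin mice and 0.222 to 0.466% in corn oil/cellulose mice. The 4.44% was in fish oil/pectin mouse 2, which also had the highest mitochondrial share; at a finer clustering 8 of its 13 barcodes fell in a smooth muscle-like cluster. The part of these markers in the comparison was not tested.

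**Figure D3:**
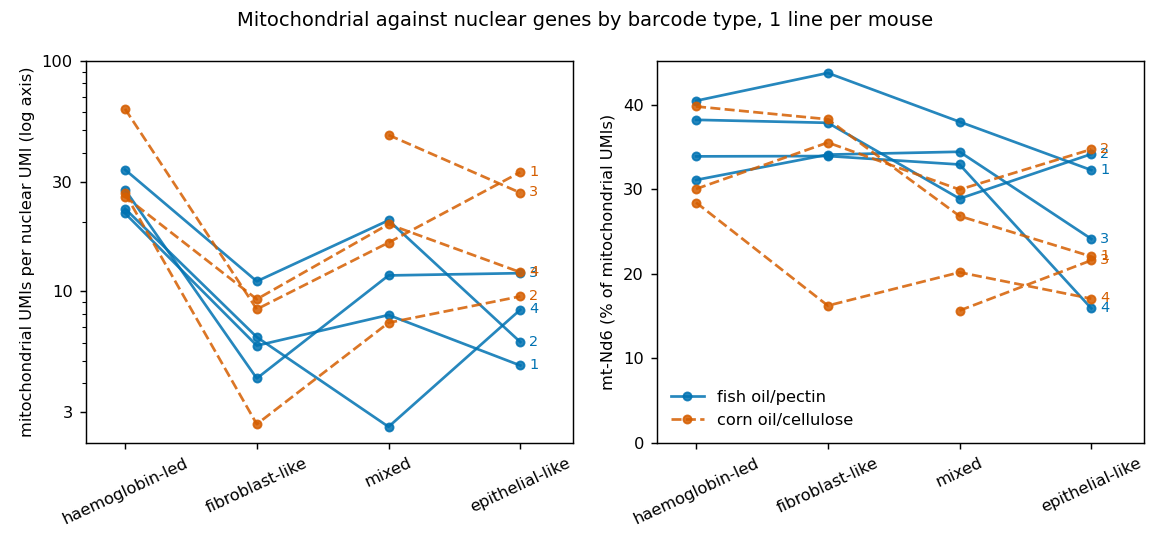
Mitochondrial UMIs per nuclear UMI (left, log axis) and mt-Nd6 as % of mitochondrial UMIs (right) by barcode type, with 1 line per mouse coloured by diet; mixed barcodes are a cluster that took no name from the marker lists. The haemoglobin-led points lie at 21.8 to 62.0, and in each of the 7 mice with both types the haemoglobin-led value is above the epithelial-like one. The 62.0, of corn oil/cellulose mouse 1, rests on 1 UMI each of Atp5b, Ndufa11 and Ndufb8.

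The fibroblast-like class was compared with the epithelial-like class in edgeR's quasi-likelihood fit with the mouse as a block. mt-Co1, the catalytic subunit of complex IV, had 1753, 10365, 6287 and 4473 CPM in fibroblast-like barcodes of fish oil/pectin mice 1 to 4, and 4234, 1474 and 5548 in those of corn oil/cellulose mice 1, 2 and 4. In epithelial-like barcodes it had 8433, 20774, 23013 and 13348 in fish oil/pectin mice 1 to 4 and 74545, 6284, 37983 and 20452 in corn oil/cellulose mice 1 to 4. Each of the 7 mice with both classes had less mt-Co1 in its fibroblast-like barcodes. On the log2 scale mt-Co1 fell by 3.08 (SE 0.43, Benjamini-Hochberg adjusted p = 3.81e-11). Of the 16 members tested, 14 were called lower, a count to be read beside the 42.9% of all 406 tested genes that were called lower, or 52.5% of those not used for clustering. Calls in either direction were 66.7% of all tested genes and 62.5% of those not used for clustering. All 13 mitochondrial genes were among the 14, with a median log2 fold change of -2.57, beside -0.87 for all genes. Scaling moved both medians: to -1.61 and 0.02 with total UMIs, to -2.10 and -0.49 with haemoglobin and mitochondrial genes left out of the scaling, and to -0.91 and 0.60 with DESeq2. The distance between them was -1.70 in the first fit and -1.62, -1.61 and -1.51 in the others. Without fish oil/pectin mouse 2, 11 of 13 members tested were called lower, and the mitochondrial median was -2.18.

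Estimates for the 13 mitochondrial genes ran from -3.23 to -1.60 (SE 0.41 to 0.72), and differences between these genes were not tested. mt-Atp6 had a log2 fold change of -3.23 (SE 0.49), mt-Co2 -3.01 and mt-Co3 -2.98, the last pair being the remaining mitochondrial subunits of complex IV. mt-Nd4 stood at -3.14 on 13 fibroblast-like UMIs, none in fish oil/pectin mice 1 and 4 or corn oil/cellulose mouse 4. In that class only fish oil/pectin mouse 2, at 1481 CPM, reached the level of the count filter. mt-Nd4 thus passed the filter mainly through the epithelial-like class, which favours a lower value in fibroblast-like barcodes. Per UMI sequenced its ratio was 0.291 (exact 95% interval 0.153 to 0.505, counting error only), against 0.165 for mt-Atp6. mt-Nd6 fell by 2.18 (SE 0.41, edgeR adjusted p = 3.96e-07) and mt-Nd4l, a small complex I membrane subunit, by 1.73 (adjusted p = 0.00865). mt-Nd2, another membrane subunit, had the smallest change of the 13, -1.60 (SE 0.64, adjusted p = 0.0198). mt-Nd6 took a larger share of mitochondrial UMIs in fibroblast-like than in epithelial-like barcodes in 6 of 7 mice, with a median ratio of 1.36. Of the nuclear members, 3 passed the filter on low counts. Cox8a passed it through the epithelial-like class, so a difference could only be towards lower values. It had 1 UMI in the fibroblast-like class and 111 in the epithelial-like class of the same 7 mice, a ratio of 0.0678 per UMI sequenced (exact 95% interval 0.00170 to 0.386, counting error only), and was called lower (edgeR adjusted p = 7.39e-06). Atp5o (7 and 76 UMIs, log2 fold change -1.73, edgeR adjusted p = 0.0736) and Ndufs3, a core complex I subunit (7 and 19 UMIs, 0.55, adjusted p = 0.727), were not called. Ndufs3 passed the filter through the fibroblast-like class, at 987 and 1048 CPM in fish oil/pectin mice 2 and 3. Its epithelial-like values were at most 95.1 CPM, so this selection favoured a higher value in fibroblast-like barcodes. DESeq2 called 6 of the 14: mt-Co1, mt-Co2, mt-Co3, mt-Atp6, mt-Nd6 and mt-Cytb. With total UMIs 12 members were called, without mt-Nd2 (-0.65, adjusted p = 0.341) and mt-Nd4l (-0.77, adjusted p = 0.255). mt-Nd2 also lost its call with haemoglobin and mitochondrial genes left out of the scaling (-1.18, adjusted p = 0.0744) and at the finer clustering (-1.61, adjusted p = 0.116). In edgeR, mt-Nd2 lost its call when any of fish oil/pectin mice 2, 3 and 4 or corn oil/cellulose mouse 1 was left out (-1.73 to -1.12 over the 7 mice left out in turn), and mt-Nd4l when fish oil/pectin mouse 2 or 3 or corn oil/cellulose mouse 1 was (-1.95 to -1.29).

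Haemoglobin-led barcodes differed from epithelial-like ones in the balance between the genomes. Their ratio of mitochondrial to nuclear UMIs was 21.8, 33.8, 27.6 and 22.9 in fish oil/pectin mice 1 to 4 and 62.0, 26.6 and 25.8 in corn oil/cellulose mice 1, 2 and 4. The nuclear UMIs behind the 62.0 were 1 each of Atp5b, Ndufa11 and Ndufb8. The epithelial-like ratio was 4.77, 6.03, 12.0 and 8.33 in fish oil/pectin mice and 32.9, 9.51, 26.8 and 12.1 in corn oil/cellulose mice. The haemoglobin-led ratio was higher in 7 of 7 mice, by 1.88 to 5.60 times with a median of 2.75. With haemoglobin, which took 80.8 to 88.3% of UMIs there, set aside, the nuclear share was lower than the epithelial-like one in 7 of 7 mice, at a median of 0.429 times, and the mitochondrial share was higher in 6 of 7, at a median of 1.36 times. mt-Nd6 took 28.4 to 40.5% of mitochondrial UMIs in this class and was above the epithelial-like share in 6 of 7 mice. A raised ratio of mitochondrial to nuclear UMIs was not particular to this class. With 20 to 99 other UMIs it was above the epithelial-like one in 6 of 6 mice (median 4.31 times). Below 20 it was above in 3 of 3 (median 20.1 times). Globin counted towards the 100 other UMIs of haemoglobin-led barcodes. Without globin, their 980 barcodes held 46559 UMIs, and the part of depth was not tested.

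In the haemoglobin-led over epithelial-like fit, 41.4% of 1521 tested genes were called (41.9% of those not used for clustering), 6.11% higher and 35.2% lower, and the median over all genes was -1.91 on the log2 scale. Of 43 members tested, 1 was called higher and 2 lower. These counts hung on scaling: 0 higher and 43 lower with total UMIs, 8 and 2 with haemoglobin and mitochondrial genes left out of the scaling, and 1 and 5 with DESeq2. Without fish oil/pectin mouse 1 they were 0 and 13. All 13 mitochondrial genes had positive log2 fold changes, with a median of 0.73, and mt-Nd2 was the one that passed (202 UMIs in the haemoglobin-led and 421 in the epithelial-like class, log2 fold change 1.59, SE 0.63, edgeR adjusted p = 0.0330). That call was lost when any of fish oil/pectin mice 1, 2 and 3 or corn oil/cellulose mice 2 and 4 was left out, with values of 0.66 to 1.80 over the 7 mice. Scaling by total UMIs, which include the globin transcripts, moved the median of all genes to -4.74 and that of the mitochondrial genes to -2.31; their distance from the median of all genes, 2.64 with TMM scaling, was then 2.43. Leaving out fish oil/pectin mouse 1 moved the mitochondrial median to -0.25, with 5 of the 13 above 0. With DESeq2 it was -0.13, with 6 above 0, and with no count filter -0.50, with 1 above 0 and a distance of 1.13 from all genes. Of the nuclear members, Cox7c, a small complex IV subunit, had 0 UMIs in the haemoglobin-led class and 48 in the epithelial-like class, at least 2.18-fold lower per UMI other than haemoglobin when 3 UMIs over the class are taken as the floor. Ndufb9, an accessory complex I subunit, had 0 and 34 UMIs, at least 1.54-fold lower. These are the 2 members called lower (edgeR adjusted p = 0.0136 for Cox7c and 0.0416 for Ndufb9). No nuclear member reached the level of the count filter in the haemoglobin-led class, where the highest value was 163 CPM (Ndufa3, fish oil/pectin mouse 1). All 30 nuclear members tested thus passed the filter through the epithelial-like class, which favours lower values in haemoglobin-led barcodes. With 0 UMIs there, Cox7c and Ndufb9 could differ only towards lower values. Cox7c did not pass the filter without fish oil/pectin mouse 2 or 3 and lost its call without corn oil/cellulose mouse 4 (adjusted p = 0.0605). Ndufb9 did not pass it without fish oil/pectin mouse 1 or 3, and kept its call only when corn oil/cellulose mouse 1 was left out.

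**Figure D4:**
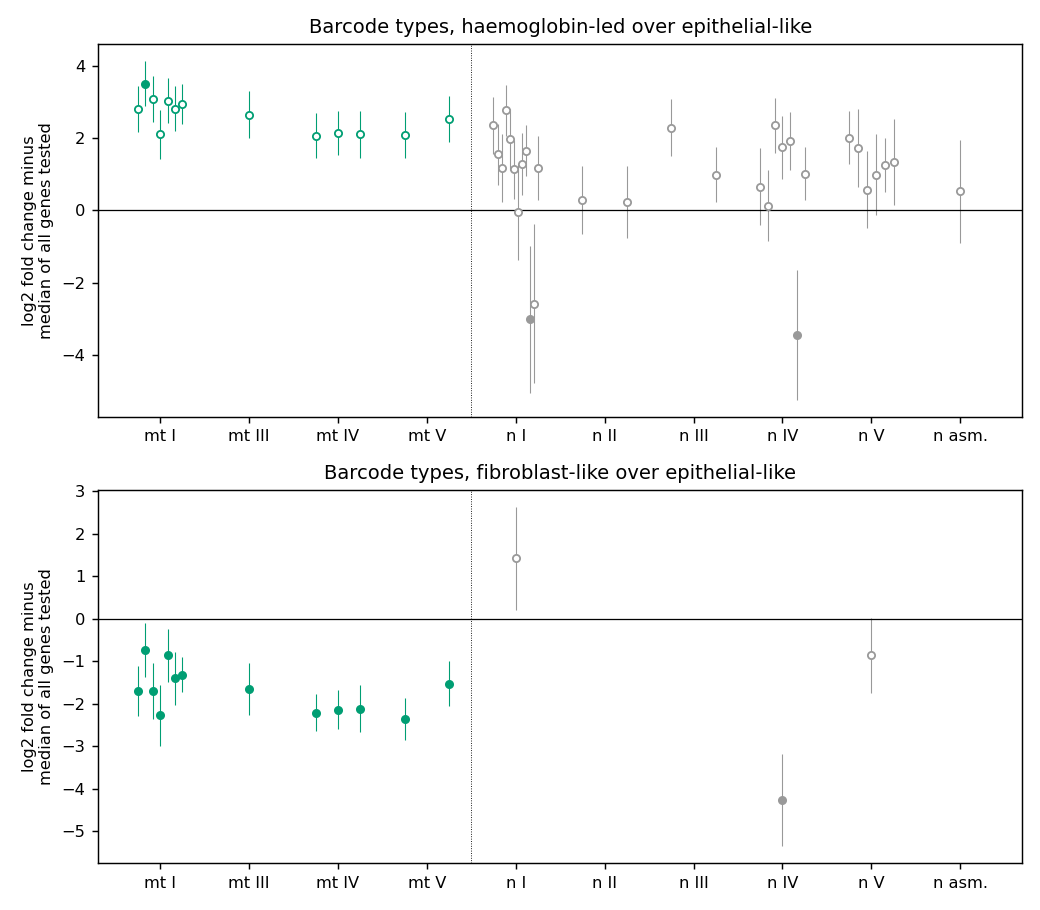
Log2 fold changes of the members tested, haemoglobin-led over epithelial-like and fibroblast-like over epithelial-like, each minus the median of all genes tested, by genome (mt or nuclear, n) and complex, with assembly factors last (asm.); bars are standard errors and filled points passed an adjusted p of 0.05. The 13 mitochondrial genes lie above 0 in the haemoglobin-led contrast and below it in the fibroblast-like one, and the positions of genes without haemoglobin-led UMIs, Cox7c and Ndufb9 among them, depend on the prior count. All nuclear members of the haemoglobin-led contrast passed the count filter through the epithelial-like class, which favours lower values.

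Shallow barcodes held the greatest excess of mitochondrial UMIs. In barcodes with 20 to 99 other UMIs, mitochondrial genes took 8.75%, 37.9% and 45.7% of UMIs in fish oil/pectin mice 1 to 3, against 28.5%, 9.53%, 81.7% and 66.0% in the corn oil/cellulose mice. The 66.0% of corn oil/cellulose mouse 4 rests on fewer than 10 barcodes. In the 6 mice with at least 10 such barcodes, the ratio to nuclear UMIs was above that of epithelial-like barcodes in all 6, by 1.11 to 13.6 times. Below 20 other UMIs the share was 69.0%, 77.3% and 89.0% in fish oil/pectin mice 1 to 3 and 52.4% in corn oil/cellulose mouse 1. The 77.3% of fish oil/pectin mouse 2 rests on fewer than 10 barcodes. Since barcodes were binned on the other UMIs alone, a barcode with many mitochondrial UMIs could fall in a low bin.

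Within the epithelium, goblet-like and absorptive colonocyte-like barcodes could be separated at a finer clustering in 6 mice, fish oil/pectin and corn oil/cellulose mice 2 to 4. Mitochondrial genes took 8.31%, 9.93% and 6.90% of goblet-like UMIs in fish oil/pectin mice and 3.28%, 21.1% and 6.31% in corn oil/cellulose mice. In absorptive barcodes they took 14.96%, 13.4% and 4.96% in fish oil/pectin mice and 5.60%, 16.7% and 12.7% in corn oil/cellulose mice. The goblet-like share was lower in 4 of 6 mice. In edgeR, 0 of 33 members tested were called at an adjusted p of 0.05, where 4.06% of 1306 genes were (3.37% higher and 0.689% lower; 3.48% of the genes not used for clustering), and 0 had an unadjusted p under 0.05; DESeq2 called 0 members too. All 13 mitochondrial genes had negative log2 fold changes (median -0.43, beside -0.15 for all genes), though leaving out corn oil/cellulose mouse 4 gave a median of -0.04 and 3 genes above 0.

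The diet comparison over all barcodes asked whether members differed between mice fed fish oil/pectin and mice fed corn oil/cellulose. No member was called. Of 4471 genes tested in edgeR, 0% passed an adjusted p of 0.05, and 107 (2.39%) had an unadjusted p under 0.05, none of them among the 73 members tested; DESeq2 called 0 members as well. The members were 13 mitochondrial and 60 nuclear genes; the remaining 31 nuclear genes did not pass the count filter. No member had values that did not overlap between the diets, where 0.0447% of genes were fully higher and 0.738% fully lower.

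The mitochondrial genes varied widely between mice of the same diet. mt-Co1 had 6617, 35767, 40391 and 10563 CPM in fish oil/pectin mice 1 to 4, against 53497, 4013, 47432 and 15464 in corn oil/cellulose mice 1 to 4. The corn oil/cellulose values enclosed the fish oil/pectin ones, and edgeR put mt-Co1 at 0.74 on the log2 scale (SE 1.55, adjusted p = 1.00). mt-Nd6 had 19362, 66869, 33542 and 8236 in fish oil/pectin mice and 128371, 8967, 44312 and 14409 in corn oil/cellulose mice, with a log2 fold change of 0.22 (SE 1.61). Standard errors of the 13 genes ran from 1.11 to 1.61. Their median was 0.49 (12 above 0), beside -0.03 for all genes, but it was -0.65 with total UMIs as library size, 1.26 with corn oil/cellulose mouse 1 left out and -0.89 with fish oil/pectin mouse 3 left out. The sign of the mitochondrial change over all barcodes thus hung on scaling and on single mice.

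The 60 nuclear members tested had a median of 0.31, with 48 above 0 and 12 below, and standard errors of 0.45 to 1.81. That median was -0.11 with total UMIs (24 of 60 above 0) and -0.02 without fish oil/pectin mouse 2 (28 of 61). By complex the medians were 0.18 for complex I (22 of 27 above 0), 0.37 for complex II (4 of 4), 0.36 for complex III (4 of 6), 0.56 for complex IV (9 of 9) and 0.08 for complex V (7 of 11). The largest change by size was in Uqcrc2, the second core subunit of complex III, which had 0, 38.9, 0 and 19.9 CPM in fish oil/pectin mice and 67.3, 40.03, 61.4 and 36.7 in corn oil/cellulose mice (log2 fold change -1.23, SE 0.70, edgeR adjusted p = 1.00). Only fish oil/pectin mouse 2 reached the corn oil/cellulose range, and leaving out a mouse moved the Uqcrc2 change between -2.37 and -0.80. Ndufs3, which belongs to the complex I arm that takes electrons from NADH, had 28.8, 77.7, 39.7 and 64.8 in fish oil/pectin mice and 46.6, 10.0, 36.9 and 48.9 in corn oil/cellulose mice (0.99, SE 0.57, adjusted p = 1.00). Ndufs1, the large iron-sulphur subunit of the same arm, had 115, 45.3, 33.1 and 59.8 in fish oil/pectin mice and 15.5, 30.02, 61.4 and 53.0 in corn oil/cellulose mice (0.85, SE 0.57). These values overlapped between the diets. Ndufa2, an accessory subunit, stood at 0.90 (SE 0.53), Cox8a at 0.58 (SE 0.74), Uqcrc1 at 0.33 (SE 0.45) and Sdha at 0.29 (SE 0.45).

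**Figure D5:**
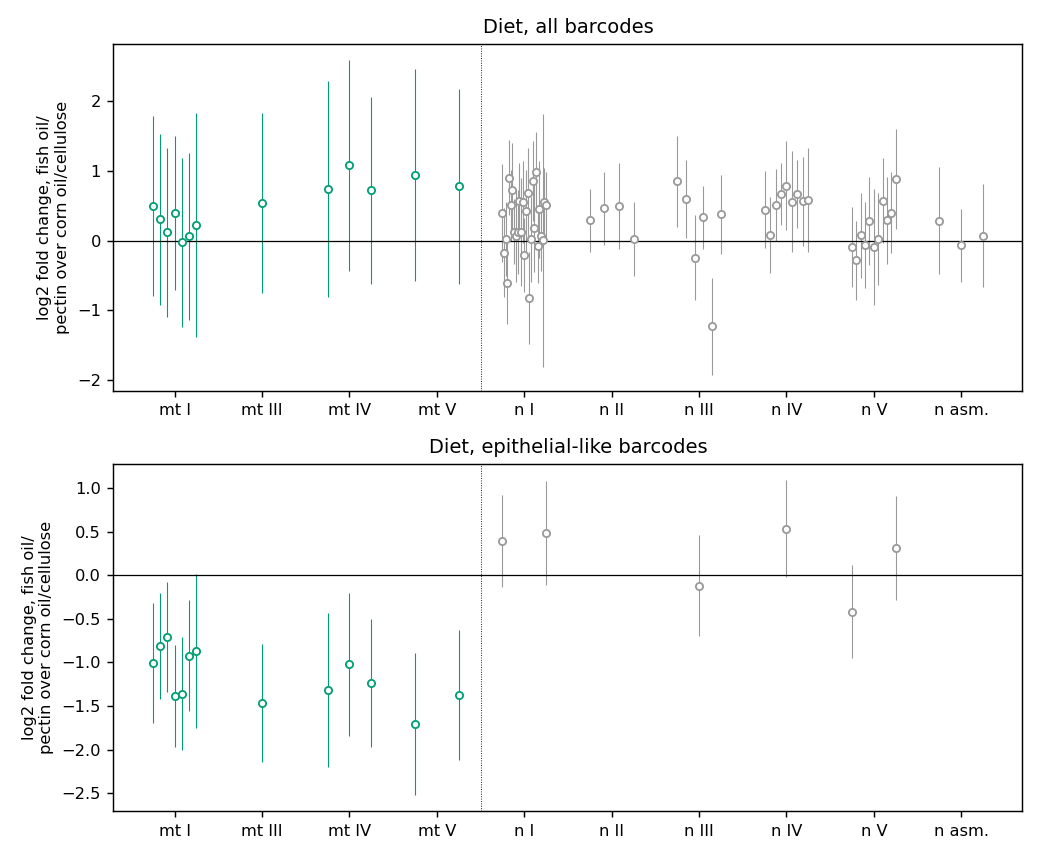
Log2 fold changes of the members tested, fish oil/pectin over corn oil/cellulose, in all barcodes and in epithelial-like barcodes, by genome (mt or nuclear, n) and complex, with assembly factors last (asm.); bars are standard errors. No point is filled, since no member passed an adjusted p of 0.05, and in epithelial-like barcodes all 13 mitochondrial genes lie below 0.

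Within epithelial-like barcodes the median log2 fold change by diet was below 0 for the mitochondrial genes and above 0 for the few nuclear genes tested, without any member passing the test. The nuclear share was 1.15%, 1.60%, 1.00% and 0.669% in fish oil/pectin mice 1 to 4 and 0.903%, 0.511%, 0.680% and 0.830% in corn oil/cellulose mice 1 to 4 (means 1.11% ± 0.387 and 0.731% ± 0.173, SD, n = 4 each). The mitochondrial share averaged 8.19% ± 3.22 in fish oil/pectin mice and 15.7% ± 10.8 in corn oil/cellulose mice. The ratio of mitochondrial to nuclear UMIs, given above for each mouse, averaged 7.78 ± 3.17 in fish oil/pectin mice and 20.4 ± 11.3 in corn oil/cellulose mice. The diets overlapped in that fish oil/pectin mouse 3, at 12.0, lay above corn oil/cellulose mouse 2, at 9.51, and fell just short of mouse 4, at 12.1. The difference of the log2 means was -1.29. It was -2.09 within the first pool (1 fish oil/pectin and 3 corn oil/cellulose mice) and -0.52 within the other (3 and 1). Each of these rests on a single mouse of one diet, so whether the pools differ cannot be read from them. These values rest on as few as 10 epithelial-like barcodes in fish oil/pectin mouse 1 and 24 in corn oil/cellulose mouse 1. Of these, 6 and 9 came from a cluster named by a marker rule relaxed after the clusters had been seen.

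By complex, the epithelial-like ratio for complex I was 5.50, 7.30, 12.9 and 5.49 in fish oil/pectin mice and 36.5, 9.67, 23.7 and 7.95 in corn oil/cellulose mice. For complex III it was 0.667, 1.91, 6.80 and 2.55 against 9.14, 4.11, 12.8 and 4.77. Fish oil/pectin mouse 3 alone entered the corn oil/cellulose range for complex III. For complex IV it was 5.12, 8.93, 19.5 and 22.6 in fish oil/pectin mice and 68.0, 18.5, 45.7 and 31.0 in corn oil/cellulose mice. For complex V it was 15 (15 UMIs to 1), 3.70, 10.7 and 12.0 in fish oil/pectin mice and 25.8, 8.11, 30.4 and 17.1 in corn oil/cellulose mice. In each of the 4 complexes with mitochondrial subunits, at least 1 fish oil/pectin mouse lay above the lowest corn oil/cellulose mouse.

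In edgeR, 0.274% of 731 genes tested in epithelial-like barcodes passed an adjusted p of 0.05, and 0 of 19 members, as with DESeq2. In the same edgeR fit, 6.7% of genes and 4 members, all mitochondrial, were below 0.05 before adjustment. mt-Nd4, a proton-pumping complex I subunit, had 888, 713, 1472 and 597 CPM in fish oil/pectin mice 1 to 4, against 4011, 844, 2060 and 1293 in corn oil/cellulose mice 1 to 4 (log2 fold change -1.39, SE 0.58, edgeR adjusted p = 0.651). The 2 highest values were in corn oil/cellulose mice and the diets overlapped. mt-Cytb, the haem-carrying subunit of complex III, had 888, 2092, 4549 and 1998 in fish oil/pectin mice and 10697, 1735, 6765 and 3965 in corn oil/cellulose mice (-1.46, SE 0.68, adjusted p = 0.693). mt-Atp6 had 4439, 5134, 12176 and 8006 in fish oil/pectin mice and 32927, 4408, 27684 and 15592 in corn oil/cellulose mice (-1.70, SE 0.82, adjusted p = 0.697). For both genes the highest fish oil/pectin value was that of mouse 3 and the lowest corn oil/cellulose value that of mouse 2, and the diets overlapped. mt-Nd4l was at -1.36 (SE 0.65, adjusted p = 0.697). All 13 mitochondrial genes were below 0, with a median of -1.24 and a range of -1.70 to -0.71, and the median stayed between -0.93 and -1.42 under other scalings and after adjusting for the pool. Leaving out corn oil/cellulose mouse 1 gave -0.59. No member had values that did not overlap between the diets, where 1.92% of genes were fully higher and 1.23% fully lower.

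The 6 nuclear genes tested there had a median of 0.35: Cox8a 0.53, Ndufb8 0.49, Ndufa6 0.39, Atp5o 0.32, Uqcrc1 -0.12 and Atp5d -0.42. Leaving out fish oil/pectin mouse 2 gave a median of -0.43, with 2 of 6 genes above 0. Cox8a had 444, 1141, 669 and 178 CPM in fish oil/pectin mice and 836, 281, 416 and 318 in corn oil/cellulose mice, and the fish oil/pectin values enclosed the others. The other 85 nuclear genes had too few UMIs to be tested. Whether the diet difference itself differed between the genomes was not tested.

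Genes that serve the chain were read from fixed lists, and 0 of them were called in either diet fit, where 0% and 0.274% of all genes were. Over all barcodes, 12 of 39 further assembly factors could be tested, with a median log2 fold change of 0.11. The electron carriers and other inputs (10 of 19 tested) had a median of 0.17, the citrate cycle (11 of 19) 0.06, and nucleotide exchange (8 of 14) 0.24. Genes that copy and express mitochondrial DNA (3 of 23) had a median of -0.41, regulators of mitochondrial biogenesis (7 of 13) -0.31, and mitochondrial protein folding and stress (4 of 14) -0.22. Among the 3 genes with the smallest p in each list were Coq5, an enzyme of ubiquinone synthesis (1.36, SE 0.60), Acad9, a complex I assembly factor (-1.32, SE 0.60), Tfam, which packages and transcribes mitochondrial DNA (-0.41), and Gabpa, an ETS factor of respiratory genes (-0.49). None of these 4 passed the adjusted threshold in edgeR.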

How the data were processed

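The authors deposited un-normalized UMI counts of each gene in each barcode for 8 libraries; per the submitters' processing notes, Cell Ranger 8.0.0 was used and the builds mm10 and GRCm39 are named. Whether the authors filtered barcodes further is not given in the sources used here. Libraries held 34758 to 245476 UMIs, and no pair was a copy of the other: chi-square per degree of freedom was at least 6.00 over 28 pairs. Wilson and exact intervals at 95% cover counting error only.

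Counts were summed per mouse, over all barcodes or over a class with at least 10 barcodes, and tested by robust quasi-likelihood in edgeR 4.0.16 (R 4.3.3) after TMM scaling, with Benjamini-Hochberg adjustment over all genes tested and a threshold of 0.05. Genes were filtered by filterByExpr (min.count 5). In class contrasts each mouse was its own block. Those barcodes with at least 100 UMIs from other genes were scaled to 10000, log transformed and clustered with scanpy 1.11.5 (2000 variable genes, 20 components, 15 neighbours, Leiden resolution 0.5, 14 clusters), leaving the 104 genes out. Clusters were named from markers when at least 3 were raised by 1 on the log2 scale with at least 10 UMIs. Where none was among the 10 leading genes, 40% of the list had to be raised, a rule relaxed after the clusters had been seen. This rule named a cluster of 248 of the 699 epithelial-like barcodes, with 10 of 22 absorptive colonocyte markers raised. That cluster gave 6 barcodes of fish oil/pectin mouse 1, 9 of corn oil/cellulose mouse 1 and 43 of corn oil/cellulose mouse 2. Without it, fish oil/pectin mouse 1 had 4 epithelial-like barcodes, fewer than the minimum of 10. Comparisons that use this class therefore depend in part on the rule. A class was called haemoglobin-led where its median barcode held over 50% haemoglobin. Goblet-like and absorptive clusters were apart only at resolution 1.0, so that contrast was run there. No doublet caller was run.

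The fits were tested on simulated data with 4-fold changes: 44 of 158 changed genes were recovered with 1 false call in the diet comparison (4610 genes), and 44 of 131 with 1 false call in the haemoglobin-led contrast (2174 genes). Every simulated gene had the same relative spread between libraries, and no shift in haemoglobin content was simulated. These rates therefore need not hold for the members, whose spread between mice differed from gene to gene. Alternatives were DESeq2 1.42.0, other scalings and filters, the pool, a replicate block and leaving out each mouse.

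Genes named for their values were drawn mainly from the 13 mitochondrial genes, the 3 nuclear subunits of each complex with most UMIs and members that passed a test. Others came from fixed isoform pairs, from Ndufs1, Ndufs3, Ndufa2 and Uqcrc2, and from up to 3 genes of each list by p. Not every gene of these sets is named. The members and lists were chosen with earlier results of these data known, and p-values measure the spread between these mice.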

Additional observations from a re-analysis of the deposited data

Results flagged for a closer look

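In 3 of 94 groups of 4 mice, a mouse stood apart from the others by a gap that was large for the range of its group; chance gives such a gap in about 1 in 20 groups. All were nuclear genes in epithelial-like barcodes. Uqcrc1, a core subunit of complex III, had 1169.98 UMIs per 1000000 in corn oil/cellulose mouse 1, against 227 to 253 in the other 3 mice of that diet. Atp5o, a stalk subunit of ATP synthase, had 1003 in the same mouse, against 141 to 246 in the others. Atp5d, a subunit of the catalytic part of ATP synthase, had 0 in fish oil/pectin mouse 1, against 238 to 268 in the other 3. These mice had the fewest epithelial-like barcodes of their diets, 24 in corn oil/cellulose mouse 1 and 10 in fish oil/pectin mouse 1; the part of this in the gaps was not tested.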

How the results depend on the processing

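Replicate numbers did not pair the mice. Correlations between same-numbered mice were 0.191, -0.202, -0.079 and 0.263, and only corn oil/cellulose mice 1 and 4 correlated best with their own number. Every mouse numbered 1 or 2 correlated best with a mouse numbered 1 or 2 of the other diet. Each numbered 3 or 4 did so with one numbered 3 or 4. These correlations were taken over all genes past the count filter in all barcodes. This is the division seen for mt-Nd6, and its cause was not tested. With a replicate block, the mitochondrial median by diet in all barcodes was -0.01, and mt-Atp6 in all barcodes was -0.10. Those fits called 2 genes by diet in all barcodes and 6 in epithelial-like barcodes, 0 of them members. The diet fit in all barcodes called 0 genes, 4 with no count filter and 0 to 1 when a mouse was left out. The epithelial-like fit called 2, and 0 with DESeq2, a minimum count of 10, the pool or resolution 1.0, 4 with no filter, and 0 to 12 without a mouse. No member was called by diet in any of these. The haemoglobin-led contrast called 629 genes, 1500 with total UMIs, 1281 with no filter and 296 to 1564 without a mouse; of its 3 members, 1 higher and 2 lower, the count was 43 with total UMIs (all lower), 10 without haemoglobin and mitochondrial genes in the scaling (8 higher), 6 with DESeq2 (5 lower), 5 with no filter and 1 at resolution 1.0 (all lower), and 0 to 13 without a mouse, the 13 all lower and without fish oil/pectin mouse 1. The fibroblast-like contrast called 271 genes, 797 with no filter and 173 to 463 without a mouse; its 14 members became 6 with DESeq2. The goblet-like contrast called 53 genes, 80 with total UMIs, 18 with no filter and 21 to 121 without a mouse.

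The cause of the following changes was not tested. In all barcodes by diet, log2 fold changes turned negative with total UMIs for mt-Co1 (-0.37), mt-Nd6 (-0.61), mt-Atp6 (-0.46), Cox8a (-0.15) and Sdha (-0.053), with the pool for mt-Co1 (-0.29), mt-Atp6 (-0.59) and Cox8a (-0.20), and in barcodes with at least 100 other UMIs for mt-Co1 (-0.38) and mt-Atp6 (-0.91). Without a mouse they ran from -0.48 to 1.29 for mt-Co1, -0.34 to 1.497 for mt-Nd6, -1.43 to 1.42 for mt-Atp6, -0.11 to 1.16 for Cox8a and -0.056 to 0.44 for Sdha. In epithelial-like barcodes, Uqcrc1 was 0.18 and Ndufb8 -0.30 at resolution 1.0, Ndufa6 -0.23 with the pool and Atp5o -0.016 with no filter. Without a mouse they ran from -0.43 to 0.37 for Uqcrc1, -0.55 to 1.00 for Atp5o, -0.64 to 1.09 for Cox8a, -0.44 to 1.25 for Ndufb8 and -1.02 to 0.12 for mt-Nd3. mt-Nd2 was 0.060 with DESeq2 in the fibroblast-like contrast and -1.41 with total UMIs in the haemoglobin-led one.

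The difference in mitochondrial share by diet over all barcodes was -5.44 percentage points, -16.4 in the first pool and 7.32 in the other. The epithelial-like log2 ratio of mitochondrial to nuclear UMIs differed by -1.29, by -2.09 in the first pool and by -0.52 in the other. The first pool held 1 fish oil/pectin mouse and the other 1 corn oil/cellulose mouse, so each difference within a pool is unreplicated on one side. Among haemoglobin-led over epithelial-like ratios, the mitochondrial share was 0.194 of all UMIs and 1.36 of UMIs other than haemoglobin, and the nuclear share 0.0647 and 0.429. Depth limits all of this: 85 nuclear members could not be tested in epithelial-like barcodes.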
